A study of Mus musculus with 8 samples.

Results

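The trophoblast lineage genes described here are a list of 34 symbols covering the transcription factors that set up and maintain trophoblast, the regulators of its placental descendants, and epithelial, secreted and fusogenic products of those cells. They were chosen by name, by looking up each symbol in the deposited gene counts. The rule uses no measured value, although the list was drawn up with earlier results of these data known. Of the 34 symbols, 31 had a row among 47729 gene identifiers. Eomes-ps, Peg11 and Mash2 matched no row under those names. Mash2 is an older name of Ascl2, which is itself on the list, and Peg11 of Rtl1, which is not.

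Trophoblast is the outer lineage of the early mouse embryo and forms the fetal part of the placenta. In the blastocyst, TEAD4 acting with YAP1 switches on Cdx2, and CDX2, GATA3, EOMES, ELF5 and the AP-2 factors then form a network that sustains trophoblast stem cells. Embryonic stem (ES) cells derive from the inner cell mass and normally keep this programme silent, in part through POU5F1, which opposes Cdx2, and through DNA methylation of the Elf5 promoter. TCF/LEF factors are the DNA-binding partners of beta-catenin in Wnt signalling, and the series asked what ES cells do without them and with 1 of them returned.

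RNA was sequenced from E14TG2a mouse ES cells (strain 129/Ola) kept for 48 h in 15% serum with LIF, as 2 libraries in each of 4 groups. WT cells had no deletion. QKO cells carried TCF7(-/-), TCF7L1(-/-), TCF7L2(-/-) and LEF1(-/-), and lacked every full-length factor. QT7 and QT7L1 were QKO cells given a single copy of TCF7 or of TCF7L1, by the design text and the titles. The genotype tags of these lines name the opposite factor as TCF7L1(+/-) for QT7 and TCF7(+/-) for QT7L1, and groups here follow the titles. The libraries of QKO, QT7 and QT7L1 are labelled clone A (replicate 1) and clone B (replicate 2), so each is 1 clone, and those of WT are labelled biological replicates. A difference between QKO and another group is a difference between 2 clones and 2 libraries.

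Libraries held 31573536 to 43362627 counts. Tcf7, over the whole gene, lay at 59.6 and 61.9 counts per 1000000 of library size (CPM) in WT and at 7.98 to 20.9 in the other 6 libraries. Tcf7l1 lay at 68.8 and 73.6 CPM in WT and 22.5 to 39.1 elsewhere, Lef1 at 6.573 and 2.403 in WT and 0.212 to 1.33 in the mutant lines, and Tcf7l2 at 4.72 to 8.14 in all 8. Neither Tcf7 (adjusted p = 0.509, edgeR) nor Tcf7l1 (adjusted p = 0.42) passed the test between QT7 and QT7L1, and these totals do not tell the rescued lines apart. Where in each gene the deletions lie is not given in the sources used here. Summed ES cell markers (8 genes, Pou5f1 and Nanog among them) were at 5215 to 6372 CPM in every library. Fibroblast markers summed to 61.9 to 156.5 CPM, with Lum and Fap at 0. Single markers varied more. Col1a1 measured 38.6 and 18.2 CPM in the WT libraries and 51.0 and 5.82 in the QKO clones. It measured 2.58 and 13.2 in the QT7 clones, and 3.03 and 6.85 in the QT7L1 clones. Col1a2 ran from 0.102 CPM in QT7 replicate 1 to 34.5 in QKO replicate 1. The part of fibroblasts in the values below was not tested.

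Terminal trophoblast products were at or near 0 in every group. Tpbpa, a spongiotrophoblast marker, Prl3b1, which encodes placental lactogen II, and Synb, a fusogenic syncytin of retroviral origin, had 0 counts in all 8 libraries. Prl3d1, placental lactogen I of giant cells, had 2 counts in WT replicate 2 and 1 in QKO replicate 1. Prl2c2, a proliferin, had a single count, in QKO replicate 1. Plac1, an X-linked placental gene, had 0 to 5 counts. A count of 0 allows up to 0.0692 to 0.095 CPM in these libraries (3 counts, counting error only). Prl2c2 and the syncytins have close relatives in the genome, and the counting of reads with several matches is not given in the sources used here.

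Elf5, which encodes an ETS factor that locks in the trophoblast stem cell fate, was also at this limit. It had 1 and 1 counts in the WT libraries, 1 and 0 in the QKO clones, 0 and 2 in the QT7 clones, and 0 and 1 in the QT7L1 clones. No group stood apart, and no difference in Elf5 was detectable at this depth. These 7 genes did not pass the filter on low counts, which left 24 of the 31 for testing. By the same look-up, Rtl1 had 1 to 11 counts and was not tested.

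Elf5 held the sole TCF/LEF core found in the promoter windows of these genes. RefSeq promoter windows (GRCm38.p6, 250 bases before a start site) were available for 20 of the 31 genes, in 25 windows. The core CTTTGAT, searched on both strands, was in 1 of them, against 3.21% of all 32851 windows, and the variant CTTTGAA was in 0, against 4.46%. The TEAD core GGAATG was in 2 (Elf5 and Gata2), against 12.64%. Both of these windows overlap annotated exons over all 250 bases, and the Elf5 one is not the window printed below. The stretch with the match is shown because it joins a TCF/LEF core to a gene that stayed at the detection limit with and without the factors. The stretch lies inside the GENCODE gene (chr2:103411688-103450989), before a later start site. It is printed 5′ to 3′ on the gene's strand, outside annotated exons, and the capitals mark CTTTGAT read from the opposite strand.
Elf5 chr2:103423818-103424061: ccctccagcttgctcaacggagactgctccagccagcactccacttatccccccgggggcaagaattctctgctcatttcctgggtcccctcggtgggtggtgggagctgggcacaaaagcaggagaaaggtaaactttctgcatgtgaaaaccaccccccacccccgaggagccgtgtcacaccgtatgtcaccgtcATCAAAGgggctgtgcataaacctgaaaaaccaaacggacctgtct

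Among the 24 tested genes, levels covered a wide range. On a scale per length (CPM per kb of exon, mean over 8 libraries), Fbxo21 (12.7), Wfdc2 (12.4) and Tead4 (11.1) were the highest. Fbxo21 encodes a substrate adaptor of a ubiquitin ligase and Wfdc2 a secreted protease inhibitor-like protein. Tfap2c (8.24), Ets2 (5.83), Arid3a (4.20) and Ascl2 (3.99) were also above the median of tested genes, 3.38. Defining regulators of trophoblast were far below it, with Cdx2 at 0.381, Tfap2a at 0.317, Gcm1 at 0.217 and Gata3 at 0.165. In all, 9 of the 24 genes reached a mean of 1 on this scale. Neighbours in this order, such as Fbxo21 and Wfdc2, overlapped in their libraries.

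**Figure D1:**
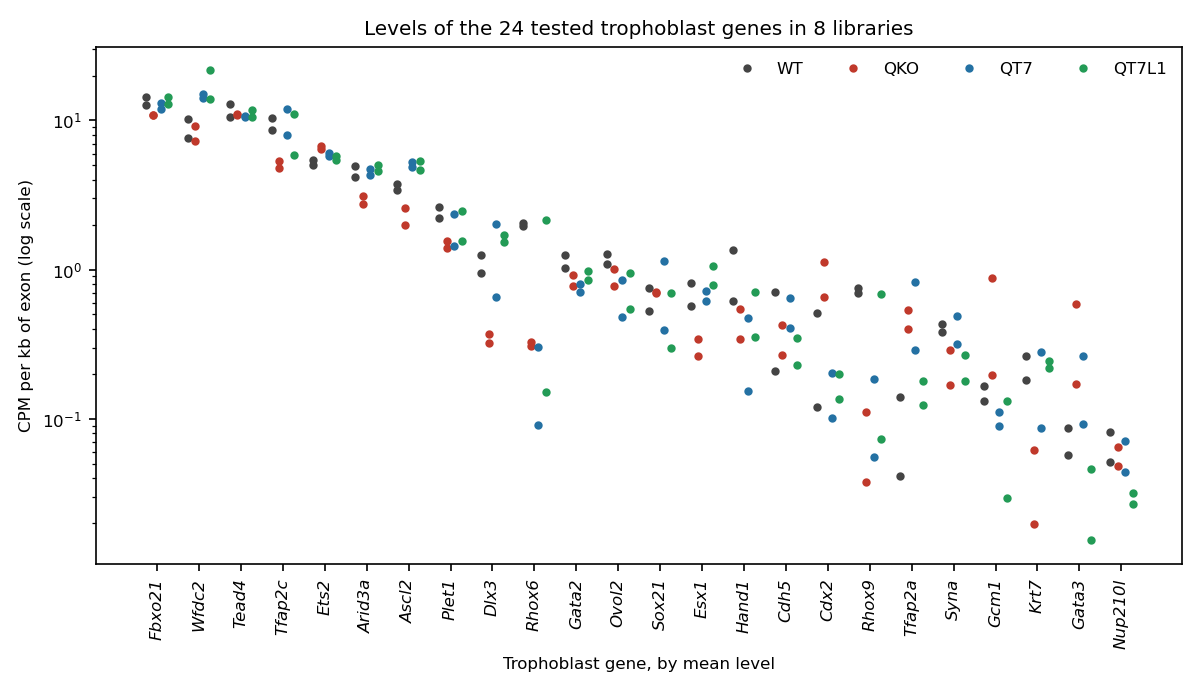
Level of each of the 24 tested genes (y axis, CPM per kb of exon on a log scale) in the 8 libraries, ordered by mean level, with 1 point per library coloured by group. Tead4 and Fbxo21 lie high with little spread, while Cdx2, Gata3, Gcm1 and Krt7 lie low and spread widely.

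Members of the list differed between QKO and WT in both directions. Against WT, 2 of the 24 tested genes were higher in QKO (Tfap2a and Gata3) and 6 were lower (Ascl2, Esx1, Krt7, Dlx3, Rhox9 and Arid3a), a called share of 33.3% where 26.4% of all 16515 tested genes were called at an adjusted p under 0.05. In QT7 against QKO, 7 were higher and 2 lower (37.5%, against 26.9% of all genes), and in QT7L1 against QKO, 7 were higher and 3 lower (41.7%, against 29.7%). The median log2 fold changes of the 24 genes were -0.43, 0.22 and 0.18 in that order, beside -0.01, 0.05 and 0.02 over all genes. These 3 comparisons share the QKO libraries.

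Without QKO replicate 2 the counts of 8, 9 and 10 called genes all fell to 0. Over all genes the calls then fell to 1272, 1432 and 1704, from 4366, 4449 and 4912. Without WT replicate 2, the calls against WT were also all lost, and calls over all genes fell there too. Against WT, Ascl2, Dlx3 and Gata3 also lost their calls without WT replicate 1 or either QT7L1 library, Rhox9 without WT replicate 1 and Esx1 without either QT7L1 library. Ascl2, Dlx3, Esx1, Rhox9 and Tfap2a lost theirs without QKO replicate 1.

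Single libraries decided other calls as well. In QT7 against QKO, Cdx2, Esx1, Gcm1, Tfap2c and Wfdc2 were lost without QT7 replicate 1, Dlx3, Gcm1 and Krt7 without QT7 replicate 2, and Dlx3, Esx1, Tfap2c and Wfdc2 without QKO replicate 1. Gcm1 and Tfap2c were also lost there without either WT library, Esx1 without WT replicate 2, and Esx1 and Krt7 without either QT7L1 library. In QT7L1 against QKO, Cdx2, Esx1, Fbxo21, Gcm1, Krt7 and Wfdc2 were lost without QT7L1 replicate 1. Arid3a, Cdx2, Dlx3, Fbxo21, Gata3, Gcm1 and Krt7 were lost there without QT7L1 replicate 2, and Dlx3 and Fbxo21 without QKO replicate 1. Ascl2 kept its call against QKO in both rescued lines except without QKO replicate 2, where its adjusted p was 0.0573 (QT7) and 0.0542 (QT7L1).

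**Figure D2:**
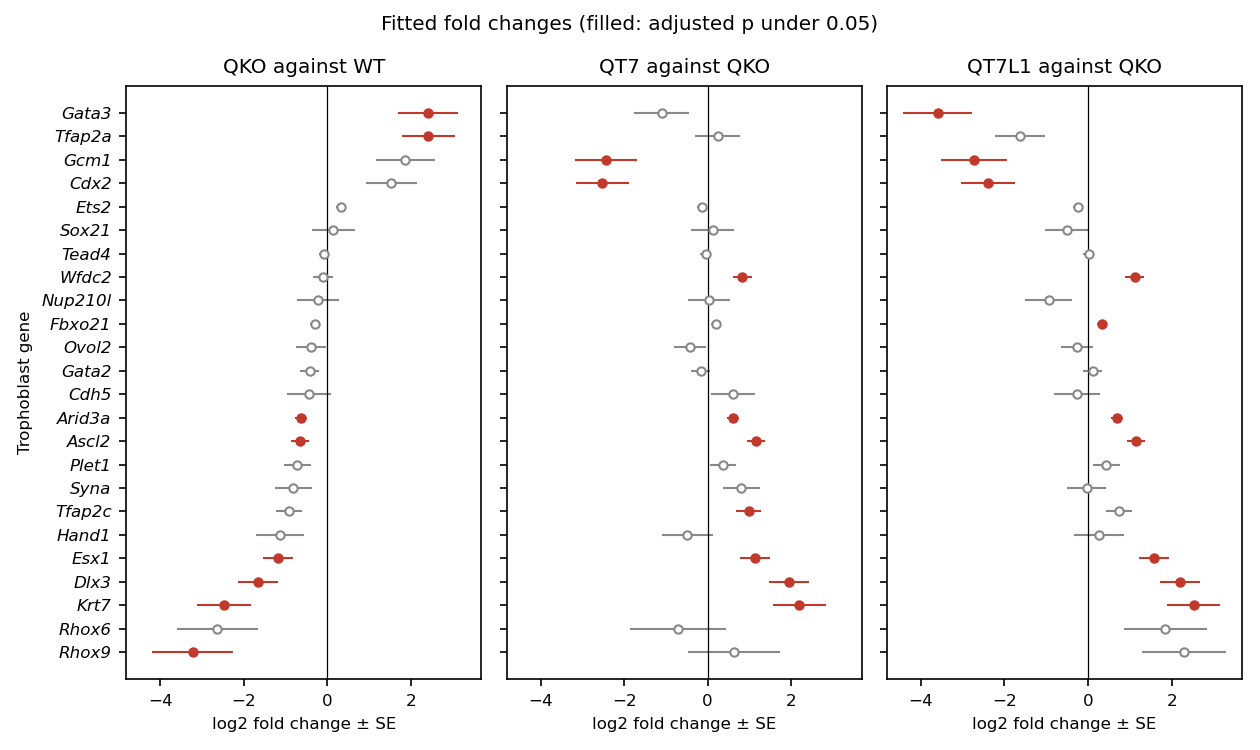
Fitted log2 fold change (x axis) with its standard error for each of the 24 tested genes in the 3 comparisons with QKO, sorted by the change in QKO against WT; filled points have an adjusted p under 0.05. Krt7, Dlx3, Esx1, Ascl2 and Arid3a lie left of 0 in the first panel and right of 0 in the others, and Cdx2 and Gcm1 lie to the right and then to the left.

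Cdx2, the homeobox gene that specifies trophectoderm, was at its highest in both QKO libraries. It measured 1.16 and 0.272 CPM in the WT libraries, 1.49 and 2.52 in the QKO clones, 0.230 and 0.460 in the QT7 clones, and 0.454 and 0.305 in the QT7L1 clones. Both QKO libraries lay above the other 6, although WT replicate 1 came close to QKO replicate 1. Against WT the log2 change was 1.53 ± 0.60 (SE), which did not pass (adjusted p = 0.0869, edgeR quasi-likelihood test with Benjamini-Hochberg adjustment, as for all adjusted p below). It was called without the low-count filter and without WT replicate 1. Cdx2 fell by 2.52 ± 0.64 on the log2 scale in QT7 against QKO (adjusted p = 0.018) and fell by 2.39 ± 0.65 in QT7L1 against QKO (adjusted p = 0.0217). In counts, the QKO libraries held 48 and 91 reads of Cdx2 and the rescued libraries 9 to 20.

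Gcm1 and Gata3 shared the high QKO replicate 2. Gcm1, which drives branching of the labyrinth and syncytiotrophoblast formation, had 11 and 12 counts in the WT libraries, 13 and 66 in the QKO clones, 9 and 8 in the QT7 clones, and 9 and 2 in the QT7L1 clones. One clone thus carried nearly all of the difference. Gcm1 fell by 2.43 ± 0.74 in QT7 (adjusted p = 0.037) and by 2.73 ± 0.79 in QT7L1 (adjusted p = 0.028) against QKO. Without QKO replicate 2 these changes shrank to -0.96 and -1.25 and their adjusted p rose to 0.472 and 0.349.

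Gata3, a zinc-finger factor that acts beside CDX2 in trophectoderm, measured 0.344 and 0.227 CPM in the WT libraries, 0.683 and 2.33 in the QKO clones, 1.05 and 0.368 in the QT7 clones, and 0.182 and 0.061 in the QT7L1 clones. QKO lay above WT and QT7L1, and its range overlapped that of QT7. It rose by 2.42 ± 0.72 in QKO against WT (adjusted p = 0.0357) and fell by 3.60 ± 0.82 in QT7L1 against QKO (adjusted p = 0.0114). In QT7 against QKO its change of -1.11 ± 0.65 did not pass (adjusted p = 0.236). Without QKO replicate 2 the change against WT was 1.26, with an adjusted p of 0.324. An annotated gene overlaps Gata3 on the same strand and others on the opposite strand, and whether counting used the strand is not stated.

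Tfap2a, which encodes an AP-2 factor of trophectoderm and also of surface ectoderm, was high in QKO and QT7. It measured 0.689 and 0.204 CPM in the WT libraries, 2.64 and 1.97 in the QKO clones, 4.03 and 1.43 in the QT7 clones, and 0.878 and 0.609 in the QT7L1 clones. The 4 libraries of QKO and QT7 lay above the 4 of WT and QT7L1. Tfap2a rose by 2.42 ± 0.63 in QKO against WT (adjusted p = 0.0223), and by 2.66 ± 0.62 in QT7 against WT (adjusted p = 0.0467), the sole call among the 24 genes in that comparison. In QT7L1 against QKO its change of -1.62 ± 0.60 did not pass (adjusted p = 0.0676), but was called by DESeq2, without the low-count filter, with the 2 groups alone and without any single WT or QT7 library.

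Markers of 2-cell-like cells, a rare state of ES cultures, had their highest sums in QKO and QT7. Their 9 genes summed to 2.50 and 10.2 CPM in the WT libraries, 34.9 and 15.8 in the QKO clones, 26.9 and 38.3 in the QT7 clones, and 3.30 and 2.77 in the QT7L1 clones, and none was at 0 throughout. Of the 8 tested, 3 rose in QKO against WT and 6 fell in QT7L1 against QKO, where 26.4% and 29.7% of all genes were called. Between QT7 and QT7L1 edgeR called 0 of the 8, with all 8 at an unadjusted p under 0.05. DESeq2 called 4 of the 9 there, and 236 of 16789 over all genes. Surface ectoderm markers (7 genes, Tfap2b at 0) summed to 39.9 and 49.5 CPM in the WT libraries, 32.3 and 32.6 in the QKO clones, 43.8 and 41.3 in the QT7 clones, and 50.8 and 43.5 in the QT7L1 clones. Most of that sum was Grhl3, an epithelial factor, at 35.3 of the 39.9 CPM in WT replicate 1. Grhl3 fell by 0.77 ± 0.16 in QKO against WT (adjusted p = 0.00765). Against QKO it rose by 0.50 ± 0.16 in QT7 (adjusted p = 0.0444) and by 0.77 ± 0.16 in QT7L1 (adjusted p = 0.00704). Each of these Grhl3 calls was lost in some fits with 1 library left out. Wnt6, the other of the 2 that could be tested, measured 4.04 and 5.37 CPM in the WT libraries, 9.34 and 8.59 in the QKO clones, 8.32 and 10.8 in the QT7 clones, and 6.09 and 9.11 in the QT7L1 clones. It rose by 0.92 ± 0.25 in QKO against WT (adjusted p = 0.024) and by 1.02 ± 0.25 in QT7 against WT (adjusted p = 0.0493). These calls were lost in 4 and 7 of the 8 fits with 1 library left out. The part of either cell type in the Tfap2a values was not tested. In bulk RNA, fewer cells of a type and less RNA per cell cannot be told apart.

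Of the other early regulators, Tead4, Gata2, Ets2 and Sox21 passed no test in any of the 6 comparisons. Tead4, the TEAD factor upstream of Cdx2, measured 37.7 to 46.2 CPM in all 8 libraries, and its changes in the 3 comparisons with QKO were -0.08, -0.05 and 0.02. Gata2 measured 3.82 to 6.78 CPM, and Ets2, an ETS factor needed for trophoblast stem cell self-renewal, 28.9 to 38.8. The QKO libraries held the highest Ets2 values (37.1 and 38.8 CPM), but its change of 0.33 ± 0.12 against WT did not pass (adjusted p = 0.0595), except without either QT7 library. Sox21, a SOX-family repressor, measured 1.13 to 4.31 CPM with overlapping groups in QKO against WT and in QT7 against QKO.

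Tfap2c, an AP-2 factor needed to maintain trophoblast stem cells, had its lowest values in QKO. It measured 38.5 and 31.6 CPM in the WT libraries, 19.5 and 17.5 in the QKO clones, 44.2 and 29.2 in the QT7 clones, and 40.4 and 21.6 in the QT7L1 clones. Both QKO libraries lay below the other 6, where those of Tfap2a lay above WT. It rose by 0.99 ± 0.30 in QT7 against QKO (adjusted p = 0.0445), while its changes of -0.92 ± 0.30 in QKO against WT (adjusted p = 0.0571) and 0.74 ± 0.30 in QT7L1 against QKO (adjusted p = 0.101) did not pass. Both were called by DESeq2 and without the low-count filter. The first was also called under the stricter filter on CPM, with the 2 groups alone and without any single QT7 or QT7L1 library, and the second without QT7L1 replicate 2.

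**Figure D3:**
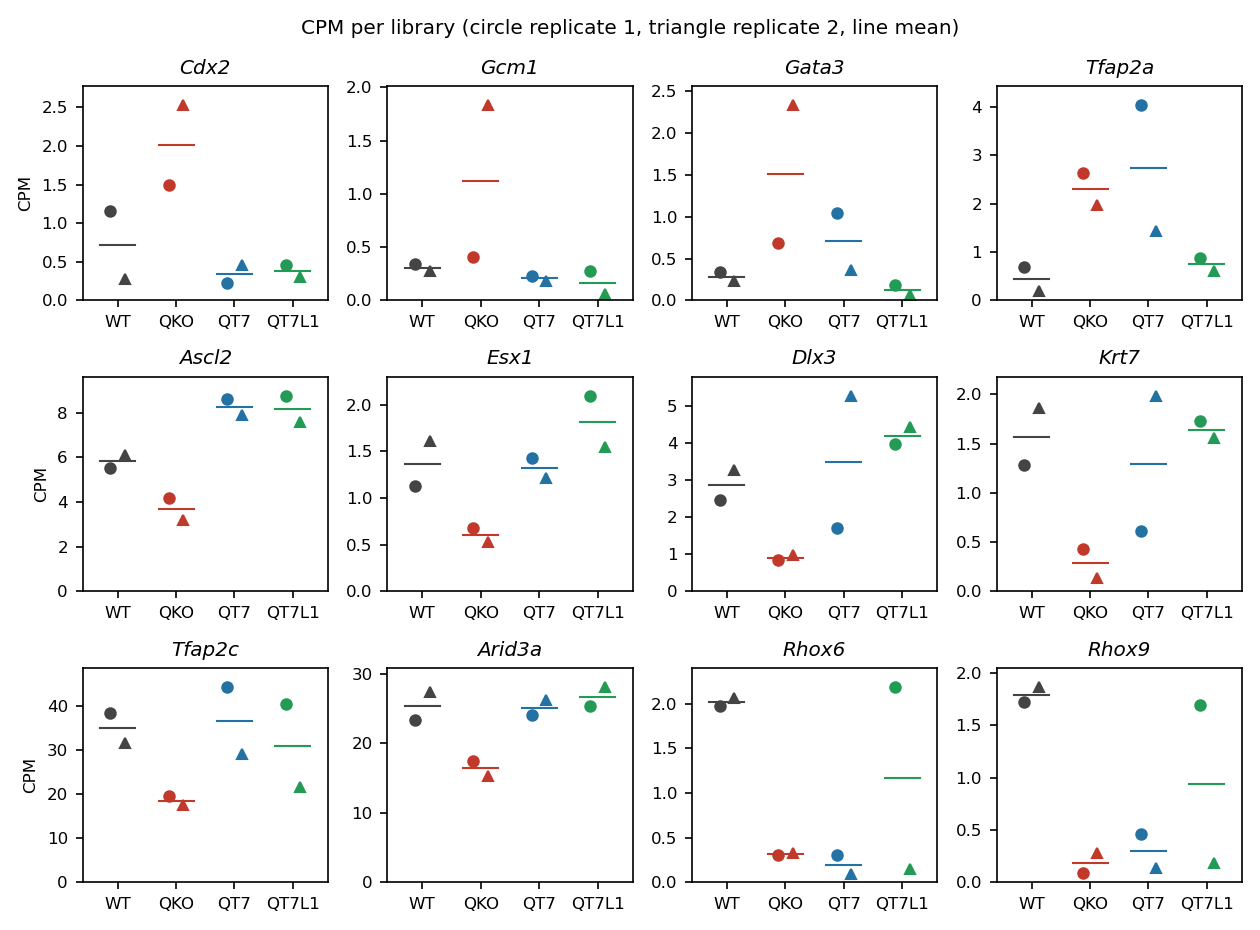
CPM (y axis, linear, from 0) of 12 genes in the 4 groups; circles are replicate 1, triangles replicate 2 and lines the mean of 2 libraries. Cdx2, Gcm1 and Gata3 peak in QKO replicate 2, Ascl2, Esx1 and Arid3a are lowest in both QKO libraries, and Rhox6 and Rhox9 are high in WT and in QT7L1 replicate 1.

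Ascl2, Esx1 and Dlx3, regulators of later placental compartments, fell in QKO and rose again in both rescued lines. Ascl2, an imprinted bHLH factor of the ectoplacental cone and spongiotrophoblast, measured 5.51 and 6.12 CPM in the WT libraries, 4.19 and 3.22 in the QKO clones, 8.60 and 7.89 in the QT7 clones, and 8.72 and 7.58 in the QT7L1 clones. QKO, WT and the rescued lines did not overlap, and the rescued lines lay above WT. Ascl2 fell by 0.65 ± 0.22 in QKO against WT (adjusted p = 0.0481) and rose by 1.16 ± 0.22 in QT7 (adjusted p = 0.00462) and 1.14 ± 0.22 in QT7L1 (adjusted p = 0.00446) against QKO. Against WT, the rescued lines differed by 0.50 ± 0.21 (QT7) and 0.49 ± 0.21 (QT7L1), which did not pass (adjusted p = 0.211 and 0.309). The fall against WT was lost with RLE scaling (adjusted p = 0.0515), without the low-count filter, with the 2 groups alone and with any of 6 single libraries left out.

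Esx1, an X-linked homeobox gene of the labyrinth, was also lowest in both QKO libraries. It measured 1.13 and 1.61 CPM in the WT libraries, 0.683 and 0.527 in the QKO clones, 1.43 and 1.22 in the QT7 clones, and 2.09 and 1.55 in the QT7L1 clones. It fell by 1.19 ± 0.36 in QKO against WT (adjusted p = 0.0357) and rose by 1.13 ± 0.36 (adjusted p = 0.0412) and 1.59 ± 0.36 (adjusted p = 0.00957) in QT7 and QT7L1 against QKO. DESeq2 called Esx1 neither in QKO against WT (adjusted p = 0.085) nor in QT7 against QKO (adjusted p = 0.106), and a fit of the 2 groups alone lost the latter too (adjusted p = 0.0823).

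Dlx3, a homeobox gene required for labyrinth development, measured 2.47 and 3.27 CPM in the WT libraries, 0.838 and 0.970 in the QKO clones, 1.71 and 5.24 in the QT7 clones, and 3.97 and 4.42 in the QT7L1 clones. QT7 replicate 1 lay below WT, and QT7 replicate 2 was the highest of the 8 libraries. Dlx3 fell by 1.66 ± 0.48 in QKO against WT (adjusted p = 0.031) and rose by 1.94 ± 0.48 (adjusted p = 0.0161) and 2.21 ± 0.48 (adjusted p = 0.00905) in the rescued lines.

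Hand1, a bHLH factor of giant cells that is also expressed in mesoderm, was highest in WT replicate 1, at 2.69 CPM, against 0.306 to 1.42 in the other 7 libraries. That library also held 310 counts of T, the mesoderm regulator brachyury, against 14 to 30 in the others. Its 9 mesoderm markers summed to 13.9 CPM against 2.78 to 4.30, but T alone gave 9.70 of the 13.9 CPM and Mixl1 1.72. Mesp1, Tbx6, Isl1 and Meox1 lay within the range of the other libraries. The part of mesoderm in the Hand1 value was not tested. Hand1 passed no test (adjusted p = 0.18 in QKO against WT), but was called there and in QT7 against WT without the low-count filter, and in the latter without QT7 replicate 2. Ovol2, a zinc-finger factor of epithelia and early placenta, measured 1.02 to 2.69 CPM and passed none either.

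The windows upstream of 4 of these genes are shown because Cdx2 and Gcm1 moved opposite to Ascl2 and Esx1 in the rescued lines; the 4 were picked after their values were seen. They are printed 5′ to 3′ on the strand of the gene (RefSeq, GRCm38.p6), with the capitals marking CpG sites and bases inside annotated exons left off. The Esx1 window lies inside the GENCODE gene, outside its exons.
Cdx2 chr5:147307271-147307499: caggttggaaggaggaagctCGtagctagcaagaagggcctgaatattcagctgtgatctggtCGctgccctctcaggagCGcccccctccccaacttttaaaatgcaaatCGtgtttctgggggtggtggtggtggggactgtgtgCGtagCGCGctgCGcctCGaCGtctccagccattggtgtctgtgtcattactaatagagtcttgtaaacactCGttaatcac
Gcm1 chr9:78051708-78051923: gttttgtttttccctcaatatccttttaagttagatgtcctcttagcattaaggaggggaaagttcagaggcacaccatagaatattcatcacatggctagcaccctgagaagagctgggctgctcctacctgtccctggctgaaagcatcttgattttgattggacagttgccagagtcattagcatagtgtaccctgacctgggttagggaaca
Ascl2 chr7:142969265-142969514: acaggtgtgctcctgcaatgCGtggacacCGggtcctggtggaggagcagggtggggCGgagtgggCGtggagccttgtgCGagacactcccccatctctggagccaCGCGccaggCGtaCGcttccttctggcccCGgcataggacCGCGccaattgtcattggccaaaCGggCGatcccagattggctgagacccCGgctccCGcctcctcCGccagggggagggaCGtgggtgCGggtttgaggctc
Esx1 chrX:137120327-137120576: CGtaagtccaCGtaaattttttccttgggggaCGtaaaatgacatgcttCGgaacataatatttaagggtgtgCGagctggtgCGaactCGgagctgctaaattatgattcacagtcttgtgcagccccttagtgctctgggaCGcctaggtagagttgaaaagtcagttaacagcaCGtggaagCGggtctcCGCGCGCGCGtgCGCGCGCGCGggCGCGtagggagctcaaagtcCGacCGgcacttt

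The printed stretches held 11 (Cdx2), 0 (Gcm1), 19 (Ascl2) and 24 (Esx1) CpG sites. Over whole windows the median of all promoters was 6, and 25.44% held more than 15. CpG content therefore differed within the pair that fell and was high in the pair that rose. None of the 3 cores searched was in these 4 windows, which says nothing of sites elsewhere.

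Among the epithelial and secreted products, Krt7 fell in QKO and rose in both rescued lines. Krt7, a keratin of simple epithelia used as a trophoblast marker, measured 1.28 and 1.86 CPM in the WT libraries, 0.434 and 0.139 in the QKO clones, 0.612 and 1.98 in the QT7 clones, and 1.73 and 1.55 in the QT7L1 clones. As with Dlx3, QT7 replicate 1 was the lowest of the rescued libraries. Krt7 fell by 2.47 ± 0.64 in QKO against WT (adjusted p = 0.021) and rose by 2.20 ± 0.64 (adjusted p = 0.0317) and 2.53 ± 0.64 (adjusted p = 0.0172) in QT7 and QT7L1 against QKO. With the 2 groups alone, Krt7 and Gcm1 lost their calls in QT7 against QKO. A gene annotated on the opposite strand overlaps Krt7.

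Arid3a, an ARID-family DNA-binding factor that takes part in trophectoderm formation, had the smallest SE of the 6 genes that fell in QKO. It measured 23.3 and 27.4 CPM in the WT libraries, 17.4 and 15.4 in the QKO clones, 24.1 and 26.2 in the QT7 clones, and 25.3 and 28.0 in the QT7L1 clones. It fell by 0.63 ± 0.14 in QKO against WT (adjusted p = 0.0113) and rose by 0.62 ± 0.14 (adjusted p = 0.0118) and 0.70 ± 0.14 (adjusted p = 0.00624) in the rescued lines. Together with Ascl2, Esx1, Dlx3 and Krt7 it made up the 5 genes called lower in QKO than WT and higher in both rescued lines than QKO, a pattern of 8.19% of all tested genes in comparisons that share the QKO libraries.

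Wfdc2 was highest in the rescued lines. It measured 8.64 and 11.6 CPM in the WT libraries, 10.5 and 8.32 in the QKO clones, 17.3 and 16.1 in the QT7 clones, and 24.7 and 15.9 in the QT7L1 clones. All 4 rescued libraries lay above WT and QKO. It rose by 0.83 ± 0.23 in QT7 (adjusted p = 0.0259) and 1.11 ± 0.24 in QT7L1 (adjusted p = 0.00719) against QKO. Against WT the differences of 0.72 ± 0.23 and 1.00 ± 0.23 did not pass (adjusted p = 0.108 and 0.0914).

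Fbxo21 measured 70.5 and 79.2 CPM in the WT libraries, 60.4 and 60.6 in the QKO clones, 65.8 and 73.0 in the QT7 clones, and 71.9 and 80.1 in the QT7L1 clones. Its rise of 0.33 ± 0.11 in QT7L1 against QKO passed (adjusted p = 0.045), but not with RLE scaling, DESeq2 or any of 6 libraries left out. The remaining genes passed no test in any comparison of the main fit. Plet1 measured 4.29 and 5.15 CPM in the WT libraries and 2.73 and 3.02 in the QKO clones. Its change of -0.71 ± 0.31 in QKO against WT did not pass (adjusted p = 0.117), but was called with the 2 groups alone. Over all 8 libraries Plet1, a surface protein of early placenta, measured 2.73 to 5.15 CPM, Syna, the second syncytin, 0.341 to 0.989, Cdh5, or VE-cadherin, 0.876 to 2.99, and Nup210l, a nucleoporin relative, 0.152 to 0.470. For Cdh5, which endothelium also expresses, 8 endothelial markers summed to 17.9 to 37.8 CPM, with Emcn at no more than 3 counts.

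Rhox6 and Rhox9, neighbouring homeobox genes on chromosome X that are expressed in placenta, split a group. Rhox6 (chrX:37826910-37829857) had 63 and 91 counts in the WT libraries, 10 and 12 in the QKO clones, 12 and 4 in the QT7 clones, and 72 and 5 in the QT7L1 clones. Rhox9 (chrX:37899097-37901770) had 55 and 82, 3 and 10, 18 and 6, and 56 and 6 in the same order. Both were therefore high in WT and in clone A of QT7L1, and low in the other 5 libraries. Over the 8 libraries their log2(CPM + 0.5) values had a Pearson r of 0.97, a description of a pair chosen after its values were seen. Rhox9 fell by 3.23 ± 0.97 in QKO against WT (adjusted p = 0.0417). Rhox6 differed by -2.64 ± 0.97 and did not pass (adjusted p = 0.0809), but was called by DESeq2, without the low-count filter, with the 2 groups alone and without either QT7L1 library.

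Of 11 further Rhox genes found in the cluster, 5 had 0 counts throughout and 4 were tested. None of the 4 passed in the 6 comparisons by edgeR, with 0 to 3 at an unadjusted p under 0.05 in each, and DESeq2 called 1, Rhox10, in QT7 against QKO and in QT7 against WT. The other 3 are also named after their values were seen. Rhox13 had 176 counts in QT7 replicate 1 against 12 to 42 elsewhere, and Rhox1 had 75 against 3 to 13. Rhox5, the most abundant of them, measured 30.9 and 48.7 CPM in the WT libraries, 12.2 and 24.1 in the QKO clones, 47.1 and 12.6 in the QT7 clones, and 37.1 and 7.67 in the QT7L1 clones. Like Rhox6 and Rhox9 it was higher in WT and QT7L1 replicate 1 than in QKO, QT7 replicate 2 and QT7L1 replicate 2, but QT7 replicate 1 was high as well.

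**Figure D4:**
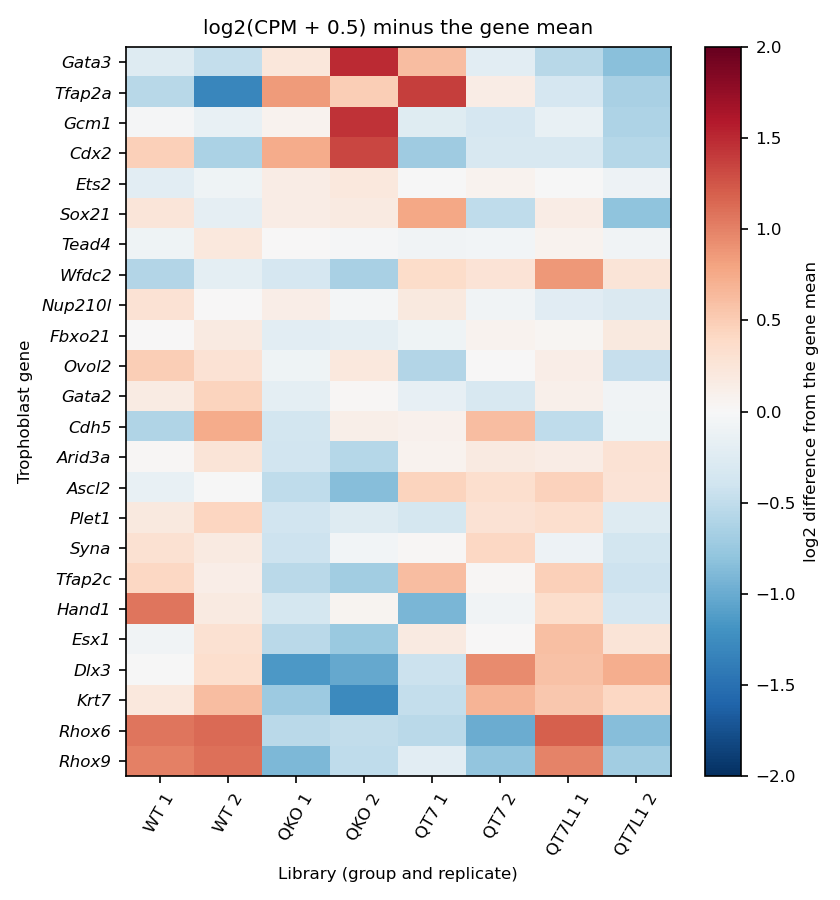
log2(CPM + 0.5) of the 24 tested genes minus the mean of each gene (colour, red above and blue below), with libraries in columns and genes ordered by their change in QKO against WT. The top rows are red in QKO replicate 2, the rows from Esx1 to Krt7 are blue in both QKO libraries, and Rhox6 and Rhox9 are red in WT and QT7L1 replicate 1.

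Gaps between replicates were wider over these genes than over all tested genes. The median absolute log2 gap between replicates over the 24 genes was 0.32 in WT, 0.38 in QKO, 0.67 in QT7 and 0.58 in QT7L1, beside 0.19, 0.16, 0.25 and 0.18 over all tested genes. Many of the 24 are low, and the part of depth in these gaps was not tested. Gaps over 2-fold were seen for 4, 4, 9 and 6 of the 24, and for 4.94%, 5.40%, 9.00% and 4.79% of all genes.

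Set against WT, the rescued lines had few calls among these genes. In QT7 against WT, Tfap2a was the 1 gene called of 24 (4.17%, against 4.62% of all genes), and its call was lost with any single WT, QKO or QT7L1 library left out, and without QT7 replicate 1 (highest adjusted p 0.182), as with the 2 groups alone. In QT7L1 against WT, 0 of 24 were called (0.745% of all genes), with 2 at an unadjusted p under 0.05. The share of all genes under that unadjusted cut was not counted in any comparison. DESeq2 called 1 (Wfdc2) in QT7L1 against WT, and 575 of 14389 over all genes. DESeq2 called 4 in QT7 against WT (Tfap2a, Rhox6, Rhox9 and Wfdc2), and 1288 of 16309 over all genes. By edgeR, 7 of the 24 were at an unadjusted p under 0.05 in QT7 against WT. There Rhox6 differed by -3.34 ± 1.01 (adjusted p = 0.107) and Rhox9 by -2.59 ± 0.90 (adjusted p = 0.146). Rhox6 was also called there without the low-count filter and with the 2 groups alone, and Rhox9 without the filter. Between QT7 and QT7L1, 0 of 24 were called by edgeR or by DESeq2, with 3 at an unadjusted p under 0.05 by edgeR. Over all genes edgeR called 0.00606% there and DESeq2 236 of 16789. The groups did not overlap there for 8 of the 24, a smaller share than the 40.8% of all genes. Of these 8, the largest differences were 2.50 ± 0.85 for Gata3 (adjusted p = 0.341) and 1.87 ± 0.59 for Tfap2a (adjusted p = 0.314), both higher in QT7. Without QT7 replicate 2, these 2 genes and Dlx3 were called. A missed threshold with 2 clones a group does not show that the factors act alike on these genes.

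Regulators around the list gave no single direction. Of 11 tested trophoblast stem cell regulators beside the list, 2 rose and 3 fell in QKO against WT, where 26.4% of all genes were called. Fgfr2, the FGF receptor of the trophoblast stem cell niche, fell by 2.26 ± 0.27 (adjusted p = 0.000865), from 15.2 and 21.5 CPM in WT to 3.48 and 4.16 in QKO, and measured 4.93 to 7.38 in the rescued lines. Cdh3, or P-cadherin, fell by 1.37 ± 0.16 (adjusted p = 0.000771). The 2 that rose were Zfp281, by 0.54 ± 0.14 (adjusted p = 0.0213), and Bmp4, by 0.51 ± 0.16 (adjusted p = 0.0413). Both of these rises lost their calls in some fits with 1 library left out. Eomes, the T-box partner of Cdx2 and Elf5, measured 6.35 and 4.65 CPM in the WT libraries, 8.53 and 8.04 in the QKO clones, and 9.38 to 10.4 in the rescued lines, with a change of 0.59 ± 0.20 in QKO against WT that did not pass (adjusted p = 0.0536). In QT7 against WT Eomes rose by 0.86 ± 0.20 (adjusted p = 0.043), a call lost in 7 of the 8 fits with 1 library left out.

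Of 19 Hippo and Notch pathway genes, 2 rose and 4 fell in QKO against WT, a share near the 26.4% of all genes. Yap1, the coactivator of TEAD4, measured 161.0 to 202.5 CPM and did not pass (adjusted p = 0.885). Amot, an angiomotin that holds YAP1 out of the nucleus, fell by 1.52 ± 0.21 (adjusted p = 0.00158). Ccn2, a common YAP1 target, fell by 1.54 ± 0.28 in QT7 (adjusted p = 0.00597) and by 1.54 ± 0.28 in QT7L1 (adjusted p = 0.00552) against QKO. These calls were lost without QKO replicate 2 (adjusted p = 0.0511) and QT7L1 replicate 1 (adjusted p = 0.054), respectively.

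Trophectoderm epithelium genes, which make the tight junctions and keratins of that layer, were lower in QKO for 7 of 17 and higher for 1, where 14.7% of all genes were lower and 11.7% higher. Cldn4 fell by 1.43 ± 0.16 (adjusted p = 0.000775), Cldn7 by 2.58 ± 0.37 (adjusted p = 0.00158) and Ocln by 1.71 ± 0.30 (adjusted p = 0.00368) against WT. In each rescued line these 3 were the genes of the 17 that rose against QKO. This is near the share of all genes that rose, 14.8% in QT7 and 15.9% in QT7L1. Of the 17, 0 fell in QT7 and 1 fell in QT7L1 against QKO, where 12.1% and 13.9% of all genes fell. Cldn4 rose by 1.28 ± 0.16 and 1.37 ± 0.16 (adjusted p = 0.00124 and 0.000868) in QT7 and QT7L1. Leaving out single libraries ended none of the calls of Cldn4. Against QKO, Cldn7 lost its call in QT7 without either QKO or either QT7L1 library or QT7 replicate 2, and in QT7L1 without QKO replicate 1 or either QT7L1 library. Ocln lost its calls without QKO replicate 2, and in QT7L1 also without QT7L1 replicate 2. Epcam, an epithelial adhesion molecule, fell by 0.82 ± 0.17 in QKO against WT (adjusted p = 0.00969), and its changes of 0.08 in QT7 (adjusted p = 0.782) and 0.37 in QT7L1 (adjusted p = 0.133) against QKO did not pass. It was lower in QT7 than in WT (-0.74 ± 0.17, adjusted p = 0.0452), a call lost in 5 of the fits with 1 library left out. ES cells express these junction genes too. Krt8 and Krt18, the keratin pair of trophectoderm, passed in none of these 3 comparisons (adjusted p = 0.461 and 0.0571 in QKO against WT).

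Genes that hold ES cells back from trophoblast rose in QKO for 7 of 16 and fell for 3, where 11.7% of all genes rose and 14.7% fell. Nanog rose by 1.00 ± 0.10 (adjusted p = 0.000615) and Trim28, a corepressor of retroelements, by 0.83 ± 0.11 (adjusted p = 0.00122). Other genes of this set had lower values in QKO. Sox2 measured 312 and 298 CPM in the WT libraries and 263 and 241 in the QKO clones. Dnmt3b measured 335 and 261 CPM in the WT libraries and 191 and 220 in the QKO clones. Pou5f1 rose by 0.39 ± 0.12 (adjusted p = 0.035), from 1471 and 1413 CPM to 2042 and 1737, beside the Cdx2 values above; this call was lost with any single WT, QKO or QT7L1 library left out. Against QKO, 6 of 16 fell and 2 rose in QT7, and 7 fell and 1 rose in QT7L1, where 26.9% and 29.7% of all genes were called. Of 43 placental hormone, protease, syncytial and imprinted genes, 26 had 0 counts in every library and 7 were tested. Slc38a4, an imprinted amino acid transporter, fell by 0.31 ± 0.09 in QKO against WT (adjusted p = 0.0358). It was the sole call of the 7 in that comparison, also lost with any single WT, QKO or QT7L1 library left out. Against QKO it rose by 0.30 ± 0.09 in QT7 (adjusted p = 0.0381) and 0.36 ± 0.09 in QT7L1 (adjusted p = 0.0173). Peg10 was lower in QT7L1 than in QKO (-0.82 ± 0.20, adjusted p = 0.0184). Against WT it was lower in QT7 (-1.14 ± 0.21, adjusted p = 0.0253) and QT7L1 (-1.40 ± 0.21, adjusted p = 0.0302). Phlda2 was lower in QT7 than in WT (-0.70 ± 0.15, adjusted p = 0.0359). Each was lost in some fits with 1 library left out.

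The authors' deposited tables of comparisons called 8 of the 31 genes at an adjusted p under 0.05 for WT against QKO, 8 for QKO against QT7 and 11 for QKO against QT7L1. For WT against QT7, WT against QT7L1 and QT7 against QT7L1 the authors' deposited tables called 3, 1 and 0. The 31 include Tpbpa, Synb and Prl3b1, which hold no value there. Calls over all genes were not counted in these tables, so whether these counts exceed the share of all genes was not tested.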

How the data were processed

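Counts were deposited by the authors as whole reads per Ensembl gene, 1 file per library. Per the submitters' processing notes, bcl2fastq 1.8.4, STAR 2.4.0f1, HTSeq and DESeq2 (listed as 2.1.8.3) were used with mm10/GRCm38; how HTSeq treated strand and reads with several matches is not given in the sources used here. In addition, the authors' deposited comparison tables hold a mean normalised signal, log2 fold changes with log2 standard errors, a test score and p-values. They were read for gene symbols, for their calls and for the direction of their fold changes.

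The 34 listed symbols were matched first through the symbols in those comparison tables, and companion and marker genes first through reference gene names. Gene positions and exon lengths came from GENCODE M21 (47310 of 47729 identifiers found) and promoter sequences from RefSeq (GRCm38.p6). In R 4.3.3, edgeR 4.0.16 (filterByExpr, TMM factors 0.955 to 1.028, robust quasi-likelihood fit with 1 mean per group over 8 libraries, 4 residual degrees of freedom) tested 16515 genes in 6 comparisons, 2-sided. P-values were adjusted by Benjamini-Hochberg over all tested genes and called under 0.05. Fold changes are the group named first over the second, and the standard error (SE) was taken from the fold change and its F statistic. The script was tested on simulated data. P-values measure the spread between 2 libraries of WT and between 2 clones of each other line. No 2 replicates agreed within sampling noise (chi-square over degrees of freedom, 17.4 to 55.7). DESeq2 1.42.0, RLE scaling, other filters, a replicate block, 2-group fits and leaving out each library were tried as alternatives.

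The genes, the companion and marker lists and the tests were chosen with earlier results of these data known. Every listed gene that passed the filter is given with its values. From each companion list, genes among the 4 with the smallest adjusted p over the 6 comparisons are named, and Pou5f1, Eomes, Yap1, Krt8 and Krt18 whatever their values. Sox2 and Dnmt3b, given for their lower values in QKO, and the further Rhox genes were named outside this rule.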

Additional observations from a re-analysis of the deposited data

How the results depend on the processing

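The number of called genes depended mainly on single libraries. With each library left out in turn it ranged from 0 to 11 in QKO against WT, 0 to 7 in QT7 against QKO, 0 to 11 in QT7L1 against QKO, 0 to 2 in QT7 against WT, 0 to 1 in QT7L1 against WT and 0 to 3 in QT7 against QT7L1. Here a lone clone is assumed to vary like the other groups, and the tests have 1 residual degree of freedom fewer. QKO against WT gave 0 without WT replicate 2 or QKO replicate 2, 4 without QKO replicate 1 and 5 without WT replicate 1. QT7 against QKO gave 0 without QKO replicate 2, 4 without QT7 replicate 1 and 5 without QKO replicate 1. QT7L1 against QKO gave 4 without QT7L1 replicate 1, 6 if replicate 2 was dropped instead, and 0 without QKO replicate 2. Between QT7 and QT7L1 the 3 calls came without QT7 replicate 2 (Dlx3, Gata3 and Tfap2a).

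In QT7 against WT, DESeq2 called 4 and no low-count filter 5. Over all genes these called 1288 of 16309 and 2203 of 25911, against 763 of 16515 in the main fit. In QT7L1 against WT, DESeq2, no filter and the 2-group fit called 1 each, Wfdc2. Over all genes these called 575 of 14389, 1248 of 25911 and 614 of 15615, against 123 in the main fit. In QT7 against QT7L1, no filter called 4, and 1030 of 25911 over all genes, against 1 in the main fit. Calls thus rose over all genes as well. The cause was not tested. Other settings kept the counts in the comparisons with QKO within 1.5 times, at 7 to 12 (QKO against WT), 6 to 9 (QT7 against QKO) and 9 to 14 (QT7L1 against QKO), and no called gene changed direction in any setting run. Over all genes those settings called 4114 to 5262, 3179 to 5373 and 4716 to 6209 in the same order. Fitted with the replicate number as a block, the counts were 9, 8, 12, 1, 0 and 0 in the 6 comparisons; Gcm1 in QT7 against QKO lost its call, and Tfap2c in QKO against WT and Tfap2a and Tfap2c in QT7L1 against QKO gained one. The numbers do not pair the libraries: the deviations of replicate 1 correlated at -0.21 to 0.16 between groups. Genes under about 100 counts, such as Cdx2, Gcm1 and Gata3, are those whose values the depth limits most.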
